A study of Mus musculus with 3 samples.

Results

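The genes described here are 8 components of the unfolded protein response and of protein folding in the endoplasmic reticulum, taken by their Ensembl identifiers from the 24318 identified genes of an H3K36me3 CUT&Tag series of the fetal mouse pancreas. They are the chaperones Hspa5, Hsp90b1 and Calr, the stress sensors Eif2ak3, Ern1 and Atf6, and the downstream transcription factors Xbp1 and Atf4, and each of them was found in each of the 3 files. The cells were epithelial cells labelled for EpCAM and flow-sorted from the pancreas of wild-type (WT) C57BL/6 embryos, with 1 library for each of the stages E11.5, E13.5 and E15.5 and the same H3K36me3 antibody in all. The study's design text writes the middle stage as E13.3, and the sample labels, followed here, as E13.5. EpCAM is a surface protein of epithelia, so the sort keeps epithelium and does not separate acinar, ductal and endocrine precursors from each other. CUT&Tag uses an antibody to bring a transposase to the marked chromatin, where it cuts and tags the DNA. The number of embryos behind a library is not stated.

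The unfolded protein response adjusts the folding capacity of the endoplasmic reticulum to the load of proteins that enter it. Sensors in its membrane are held inactive by the chaperone BiP, the product of Hspa5, and are released when unfolded proteins accumulate. Ern1 (IRE1 alpha) then splices the Xbp1 mRNA, Eif2ak3 (PERK) phosphorylates the initiation factor eIF2 alpha and so favours translation of Atf4, and Atf6 is cut to free a transcription factor. In the mouse, Xbp1 and Eif2ak3 are known to be needed by the exocrine pancreas, whose acinar cells secrete large amounts of enzyme. H3K36me3 is laid down over gene bodies by Setd2, which travels with elongating RNA polymerase II, and it is usually low at active promoters.

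Promoters of chaperone genes carry the ER stress response element, in which NF-Y binds the CCAAT part and ATF6 the CCACG part. The element was searched in both strands as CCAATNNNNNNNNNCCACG within 300 bases, from 250 bases before to 50 bases after the gene start, in the RefSeq promoter sequences of build GRCm38.p6. Of the 8 genes, 7 had a promoter in that table, and 3 of these 7 held the element, against 39 of all 32851 promoters (0.119%). As the element is known from promoters of chaperone genes, these counts describe the sequences and test nothing. The promoters with the element were those of the 3 chaperones, and they are printed here. Capitals mark the element.
Hspa5: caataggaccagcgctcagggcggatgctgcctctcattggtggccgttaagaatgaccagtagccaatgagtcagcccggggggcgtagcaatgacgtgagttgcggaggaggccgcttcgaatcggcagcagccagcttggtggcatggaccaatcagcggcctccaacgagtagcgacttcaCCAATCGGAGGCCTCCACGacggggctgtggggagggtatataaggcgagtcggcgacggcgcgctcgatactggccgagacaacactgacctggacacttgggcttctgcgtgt
Hsp90b1: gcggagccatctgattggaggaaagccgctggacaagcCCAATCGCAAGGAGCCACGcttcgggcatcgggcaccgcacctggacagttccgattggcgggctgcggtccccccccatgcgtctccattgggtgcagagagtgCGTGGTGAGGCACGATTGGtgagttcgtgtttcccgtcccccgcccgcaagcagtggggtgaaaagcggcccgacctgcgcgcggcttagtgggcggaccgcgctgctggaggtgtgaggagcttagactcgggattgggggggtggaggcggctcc
Calr: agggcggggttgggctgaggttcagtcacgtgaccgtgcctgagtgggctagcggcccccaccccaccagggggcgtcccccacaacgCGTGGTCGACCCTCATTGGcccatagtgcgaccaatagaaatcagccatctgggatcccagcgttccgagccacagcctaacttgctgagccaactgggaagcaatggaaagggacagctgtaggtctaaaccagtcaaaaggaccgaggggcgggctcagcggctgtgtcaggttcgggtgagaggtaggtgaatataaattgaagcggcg
The Hspa5 sequence is chr2:34771840-34772139 on the plus strand, that of Hsp90b1 is chr10:86705395-86705694 on the minus strand, and that of Calr is chr8:84846882-84847181 on the minus strand. In Hspa5 the element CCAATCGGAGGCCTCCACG ended 46 bases before the gene start. Hsp90b1 had 2 elements, one on each strand, of which the nearer ended 88 bases before the start. The Calr element read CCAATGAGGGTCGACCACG on the strand opposite to the gene. Of the other motifs searched, the CCAAT box alone (CCAAT, which the element contains) was present in 5 of the 7 promoters and in 37.4% of all. Hspa5 also had the XBP1 core TGACGTG, which 2.01% of all promoters held. The second ER stress response element (ATTGG, 1 base of any kind, then CCACG, in 0.0365% of all promoters) and the ATF4 element (TGATGNAA, in 3.97%) were in none of these 7 windows.

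Each file gives 3 signal columns per gene, headed PR, GB and SE, and the headers do not spell them out. GB behaved as the mean signal per position over the whole gene: the window length recovered from the values equalled the RefSeq gene length exactly for 6 of the 8 genes. These were Hspa5 (ENSMUSG00000026864, chr2:34772090-34776529, 4440 positions), Hsp90b1 (ENSMUSG00000020048, chr10:86690841-86705444, 14604), Calr (ENSMUSG00000003814, chr8:84842088-84846931, 4844), Ern1 (ENSMUSG00000020715, chr11:106397620-106487796, 90177), Xbp1 (ENSMUSG00000020484, chr11:5520641-5525993, 5353) and Atf4 (ENSMUSG00000042406, chr15:80255184-80257545, 2362). For Eif2ak3 (ENSMUSG00000031668, chr6:70844484-70905241) the recovered window was 60727 positions and the RefSeq gene 60758. For Atf6 (ENSMUSG00000026663, chr1:170704457-170868585) they were 163315 and 164129. Coordinates are those of RefSeq on GRCm38.p6. The lengths therefore also bear on the gene names, which come with the list of identifiers, since the reference table pairs none of the deposited identifiers (0 matched) with a symbol.

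PR covers 6000 positions and SE 12000, and SE holds PR. Where they lie was inferred from genes short enough to fit inside them. The summed GB signal exceeded the summed PR signal in 0 of 608 genes shorter than 1500 positions and in 4.03% of 1041 genes of 1500 to 3000 positions. Between 3000 and 4000 positions it did so in 34.5% of 751 genes. Against SE the same share was 1.86% in 2253 genes of 3000 to 6000 positions and 18.7% in 651 genes of 6000 to 7000 positions. PR is thus read as reaching 3000 positions, and SE 6000 positions, to either side of one end of the gene, and no source states which end. Under that reading the whole of Atf4 and most of Hspa5, Calr and Xbp1 lie inside the PR window, so GB and PR of these 4 short genes share positions and are not separate measurements.

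If PR is centred on the gene start, it also takes in neighbouring genes of the RefSeq annotation. It would hold 481 positions of Rabepk at Hspa5, 2633 of Ttc41 at Hsp90b1, 2784 of the long non-coding RNA gene 1700122E12Rik at Calr and 1189 of Mief1 at Atf4. No other annotated gene lies that close to the starts of Eif2ak3, Ern1 and Xbp1, and Atf6 was not examined. Rabepk begins at chr2:34774609, before the end of Hspa5 at 34776529, so the GB window of Hspa5 also holds part of Rabepk. The part of these neighbours in GB, PR and SE was not tested. Genes farther than 3000 positions from a start, which the SE window may also hold, were not examined.

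The E15.5 library stood apart from the other libraries in its spread: in stage order GB was 0 in 12.9%, 14.8% and 20.3% of all genes, while the mean GB over all genes was 0.00631, 0.00588 and 0.00924. The part of this wider spread in the results below was not tested. All 8 genes had their highest signal at E15.5 in GB, in PR and in SE, as deposited. Under quantile normalization, which gives the libraries the same distribution, 7 of 8 did in GB, 6 in PR and 6 in SE. Of the 18116 genes whose GB reached the floor in at least 1 library, 27.7% had all 3 columns highest at E15.5. The floor is the median over identified genes and libraries, in deposited units: 0.00413 (GB), 0.00407 (PR) and 0.00460 (SE). Taken singly, the highest value was at E15.5 in 41.9% of genes for GB, 53.3% for PR and 54.5% for SE, so the PR and SE counts stand against a background in which most genes were highest at that stage. With 1 library per stage there is no spread to test against, and every difference below is a size in these libraries. No library without the antibody was used here, so the background level of the signal is unknown. The depth behind a value is unknown. In bulk cells a larger share of cells with the mark and more mark per cell cannot be told apart.

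Ranked among all identified genes, the 8 genes had their highest median percentile at E15.5. Their median GB percentile was 63.9 in E11.5 cells, 75.0 in E13.5 cells and 95.9 in E15.5 cells. Genes above the 90th percentile of GB numbered 2, 2 and 5 of 8 in stage order. For PR the median percentile was 56.8, 48.0 and 92.6, and for SE it was 54.2, 71.3 and 93.2. A percentile does not change with the scale of a library. By percentile, E15.5 was the highest stage in 7 of 8 genes for GB, all but Hspa5, and in 6 of 8 for PR and for SE. Cell type markers and further genes of the pathway could not be looked up without symbols, so the purity of the sort was not examined.

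**Figure D1:**
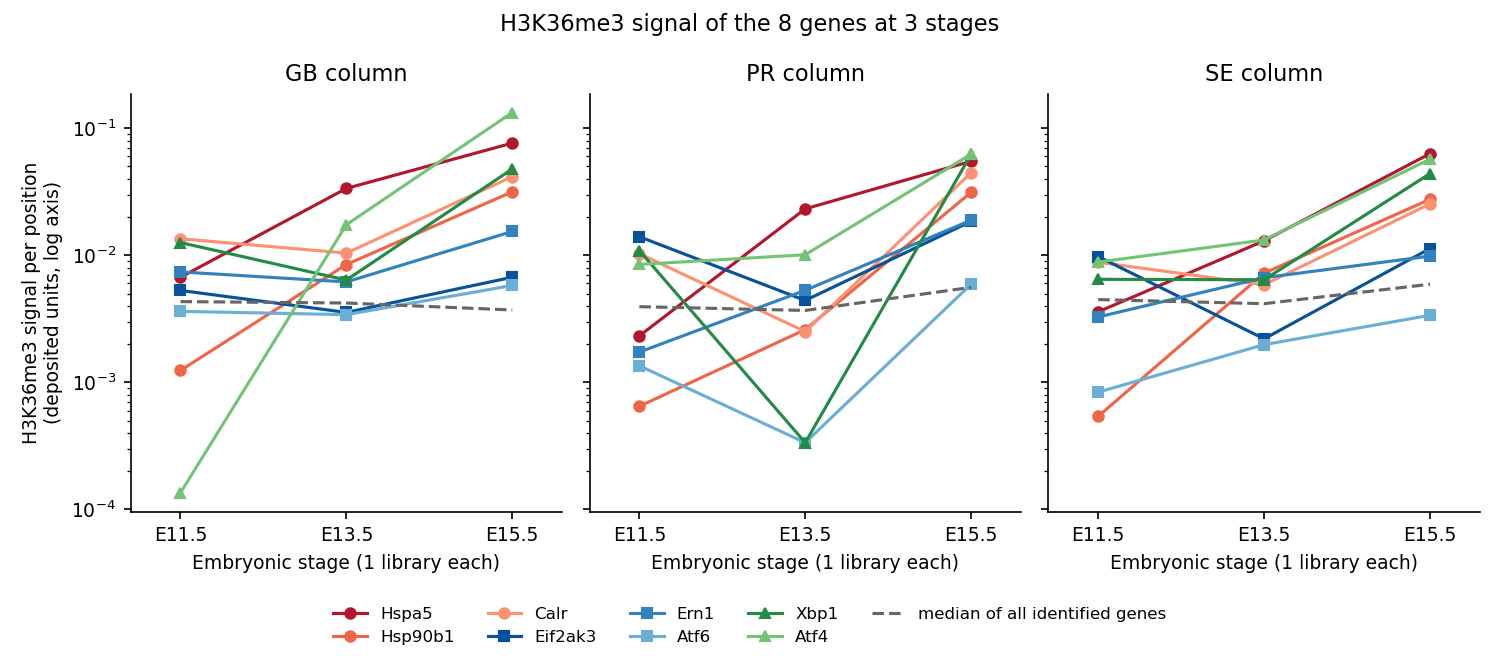
H3K36me3 signal per position (deposited units, log axis) of the 8 genes in the GB, PR and SE columns by stage, 1 library each; circles are chaperones, squares sensors, triangles downstream factors and the dashed line is the median of all identified genes. All 8 genes are highest at E15.5 in each column, while the GB median of all genes is 0.00432, 0.00421 and 0.00371 in stage order.

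**Figure D2:**
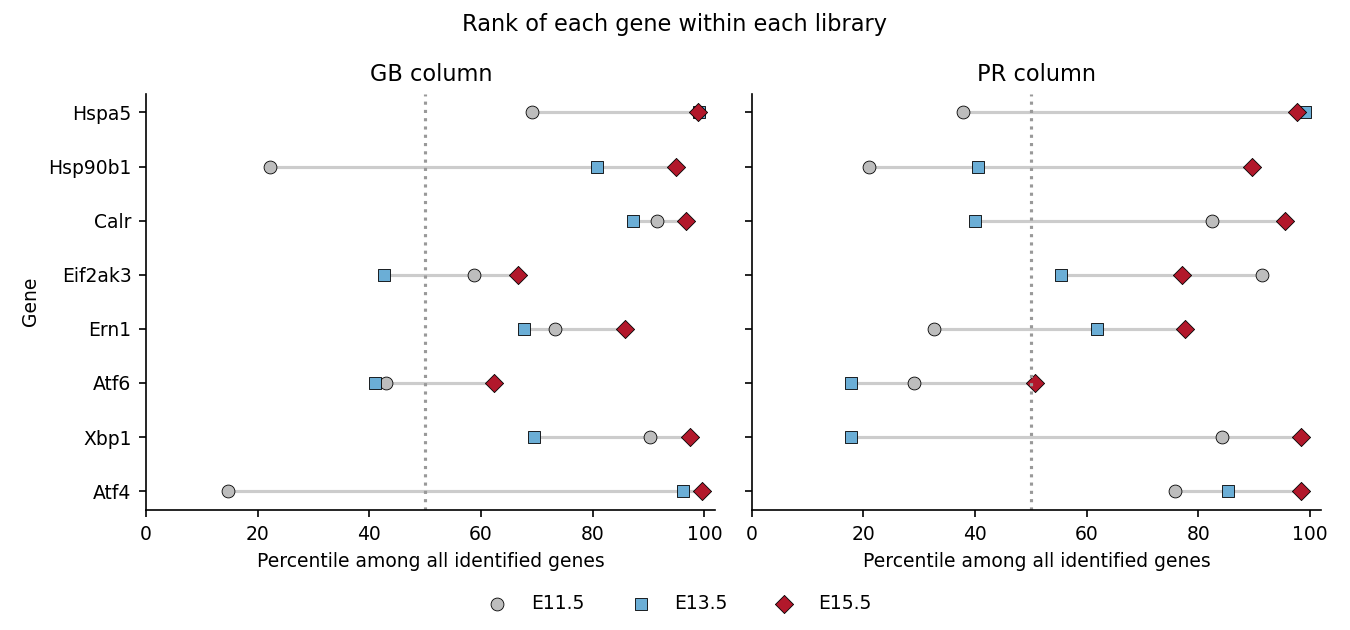
Percentile of each gene among the 24318 identified genes of the same library, for GB and PR; circles are E11.5, squares E13.5 and diamonds E15.5, and the dotted line is the 50th percentile. The E15.5 diamond is farthest right in GB for all genes but Hspa5, which is at 98.9 at E15.5 and 99.1 at E13.5.

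Hspa5 encodes BiP, the main Hsp70 chaperone of the endoplasmic reticulum. The GB window of Hspa5, chr2:34772090-34776529, is shared with Rabepk from 34774609 to the end of the window. GB signal of Hspa5 per position was 0.00671 in E11.5 cells, 0.0336 in E13.5 cells and 0.0764 in E15.5 cells. At E13.5 its GB was the highest of the 8 genes, at percentile 99.1, against 69.2 at E11.5. PR followed the same order, with 0.00232, 0.0232 and 0.0550. SE was 0.00359, 0.0130 and 0.0631. The part of SE outside PR was 0.00486, 0.00274 and 0.0712, above PR at E11.5 and E15.5 and below it at E13.5.

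Hsp90b1 encodes GRP94, the Hsp90 chaperone of the same compartment. Its GB signal per position was 0.00124, 0.00846 and 0.0316 in stage order, at percentiles 22.2, 80.7 and 94.9. PR was 0.000648, 0.00260 and 0.0313. Of the chaperones it had the lowest GB at every stage and the largest ratio of E15.5 over E11.5. Values from E11.5 are small sums: in each library window sums were whole multiples of a smallest increment, called a step here, and GB of Hsp90b1 at E11.5 was 112 steps over 14604 positions, with 24 steps in PR. Hspa5 at E11.5 had 184 steps in GB and 86 in PR. Steps are not counts of fragments, because a fragment that covers many positions would add many steps. How many fragments lie behind a value is unknown. Since Hsp90b1 is longer than the PR window, a bound can be set on signal elsewhere in the gene. At E15.5 at least 59.3% of its summed GB signal lay outside PR, and that remainder was 15.1 times the whole GB sum at E11.5.

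Calr encodes calreticulin, a calcium-binding lectin that folds glycoproteins. GB per position was 0.0135, 0.0104 and 0.0416 in stage order, so E13.5 was the lowest stage, unlike in the other chaperones. These GB values were 404 steps at E11.5 and 301 at E13.5, so their order may rest on few fragments. PR had the same order with a deeper low, at 0.0103, 0.00251 (90 steps) and 0.0447. Its percentile in PR was 82.5 in E11.5 cells, 40.0 in E13.5 cells and 95.5 in E15.5 cells.

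The sensors, the 3 longest of these genes, had lower GB at E15.5 than the chaperones and downstream factors. Ern1, the kinase and endonuclease that splices Xbp1, had GB per position of 0.00740, 0.00617 and 0.0154 in stage order. Eif2ak3, the kinase acting on eIF2 alpha, had 0.00529, 0.00355 and 0.00672. Atf6, the membrane-bound transcription factor, had 0.00362, 0.00341 and 0.00579. In each of the 3 sensors E13.5 was the lowest stage and E15.5 the highest.

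PR of the sensors was less uniform. Ern1 had 0.00173, 0.00530 and 0.0189 in stage order and Atf6 had 0.00135, 0.000335 and 0.00592. Eif2ak3 had 0.0140, 0.00441 and 0.0185, so its E15.5 and E11.5 values were close, and its PR percentile was 77.0 at E15.5 against 91.4 at E11.5. The Atf6 value at E13.5 is 12 steps and the Ern1 value at E11.5 is 64 steps.

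In these long genes most GB signal cannot come from the PR window. At E15.5 at least 91.8% of the GB sum of Ern1 and 96.2% of that of Atf6 lay outside PR. These remainders were 1.90 times (Ern1) and 1.54 times (Atf6) the whole GB sum of the same gene at E11.5. For Eif2ak3 the same bound was 0.925, so a difference outside PR is not shown.

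Xbp1 encodes the transcription factor whose spliced form activates chaperone and secretory genes. Its GB per position was 0.0126, 0.00638 and 0.0478 in stage order, at percentiles 90.2, 69.4 and 97.5. PR was 0.0109, 0.000335 and 0.0623, and the E13.5 value rests on 12 steps. GB was 418 steps at E11.5 and 204 at E13.5, so the order of these values may rest on few fragments. E13.5 was therefore the lowest stage in both columns, whereas SE was nearly equal in the earlier libraries, at 0.00642 in E13.5 cells and 0.00647 in E11.5 cells.

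Atf4 encodes the transcription factor translated when eIF2 alpha is phosphorylated. GB per position was 0.000135 in E11.5 cells, 0.0174 in E13.5 cells and 0.133 in E15.5 cells, the last being the highest GB of the 8 genes at any stage. The E11.5 value is 2 steps in a window of 2362 positions, so no ratio against it is given. PR, which contains the gene under the reading above, was 0.00847, 0.0101 and 0.0626 in stage order. SE was 0.00884, 0.0132 and 0.0571, at percentiles 81.3, 95.5 and 99.5. At E11.5 the PR and SE values are 314 and 655 steps, against the 2 steps in GB. Under that reading nearly all PR and SE signal at E11.5 therefore lay outside Atf4, and its source was not tested.

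The order of the genes by GB changed between stages. At E11.5 the order from high to low was Calr, Xbp1, Ern1, Hspa5, Eif2ak3, Atf6, Hsp90b1 and Atf4. At E15.5 it was Atf4, Hspa5, Xbp1, Calr, Hsp90b1, Ern1, Eif2ak3 and Atf6, with the 3 sensors at the lower end. Gene length was not matched in these orders, and among genes of like length Ern1 was at percentile 97.6 at E15.5. Neighbours in these orders cannot be called different, since no replicate gives their spread.

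Between the 2 earlier stages the genes did not move together. Log2 ratios here are of signal plus 0.001, and a gene counts as called where it is at least 2-fold apart and the higher library reaches the floor. In GB, 3 of the 7 genes that reached the floor were at least 2-fold higher at E13.5 (17.2% of all 16346 genes above the floor) and 0 were lower (19.4% of all). The 3 were Hspa5 (log2 ratio 2.16), Hsp90b1 (2.08) and Atf4, whose E11.5 value is the 2 steps named above. Among genes of like length the share at least 2-fold higher was 27.2% (Hspa5), 14.7% (Hsp90b1) and 33.6% (Atf4). The other 5 genes had lower GB at E13.5, with log2 ratios between -0.89 (Xbp1) and -0.07 (Atf6, below the floor). The median over the 8 genes was -0.15 and that over all genes above the floor -0.07.

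In PR, E13.5 against E11.5 split the genes both ways. Of 6 genes reaching the floor, 2 were at least 2-fold higher at E13.5 (28.8% of all 16911 genes) and 3 were lower (32.8%). Hspa5 was higher by 2.87 and Ern1 by 1.21 on the log2 scale. Calr, Eif2ak3 and Xbp1 had log2 ratios of -1.69, -1.47 and -3.16.

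GB was higher at E15.5 than at E13.5 in 8 of 8 genes. It was at least 2-fold higher in 6, where 27.6% of all 16006 genes were, and lower in 0, where 22.1% were. Those 6 were Atf4 (log2 ratio 2.86), Xbp1 (2.72), Calr (1.90), Hsp90b1 (1.78), Ern1 (1.19) and Hspa5 (1.16). Among genes of like length the share at least 2-fold higher was 50.2% (Atf4), 43.7% (Xbp1), 44.6% (Calr), 29% (Hsp90b1), 7.3% (Ern1) and 45.6% (Hspa5). Ranked among such genes, the 8 ratios lay between percentiles 58.1 (Hspa5) and 95.7 (Ern1). Eif2ak3 and Atf6 had 0.76 and 0.62. Under quantile normalization the ratio of Hspa5 turned to -0.11 in GB and -0.35 in PR. The median over the 8 genes was 1.49, against 0.22 over all genes above the floor.

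PR was at least 2-fold higher at E15.5 than at E13.5 in 8 of 8 genes, where 52.2% of all 17609 genes were and 24.7% were lower. The log2 ratios ran between 1.21 (Hspa5) and 5.57 (Xbp1), with a median of 2.44 against 1.12 over all genes.

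Over the whole span, E15.5 against E11.5, GB was at least 2-fold higher in 5 of 8 genes, where 26.5% of all 16048 genes were, and lower in 0, where 22.8% were. Hsp90b1 had a log2 ratio of 3.86 (0.0316 at E15.5, against 0.00124 at E11.5). Hspa5 had 3.33 (0.0764 at E15.5, against 0.00671). Xbp1 and Calr had 1.84 and 1.55, and Atf4 was the fifth. The sensors had 0.96 (Ern1), 0.56 (Atf6) and 0.30 (Eif2ak3), all short of the threshold; without the pseudocount the ratio for Ern1 is 2.08. In PR, 7 of 8 genes were at least 2-fold higher, against 50% of all 17716 genes (26.0% were lower), with Eif2ak3 (0.38, and -0.75 under quantile normalization) as the exception. The comparisons share libraries, so they are not independent of each other.

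In SE, the wider window, all 8 genes were higher at E15.5 than at either earlier stage. SE holds PR, however, and SE outside PR was highest at E15.5 only in Hspa5, Hsp90b1, Xbp1 and Atf4. It was highest at E13.5 in Calr, Ern1 and Atf6, and at E11.5 in Eif2ak3. At E13.5 against E11.5, 2 of the 7 genes that reached the floor were at least 2-fold higher, Hsp90b1 (log2 ratio 2.42) and Hspa5 (1.61), beside 19.9% of all 16272 genes. Eif2ak3 was at least 2-fold lower (-1.75), beside 24.8% of all. At E15.5 against E13.5, 6 of 7 were at least 2-fold higher (45.7% of all 17200 genes) and 0 lower (17.9%), with Ern1 (0.50) short of the threshold. At E15.5 against E11.5, 6 of 7 were at least 2-fold higher (42.7% of all 17592 genes) and 0 lower (19.7%), and here Eif2ak3 (0.19) fell short. Atf6 stayed below the SE floor at every stage.

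**Figure D3:**
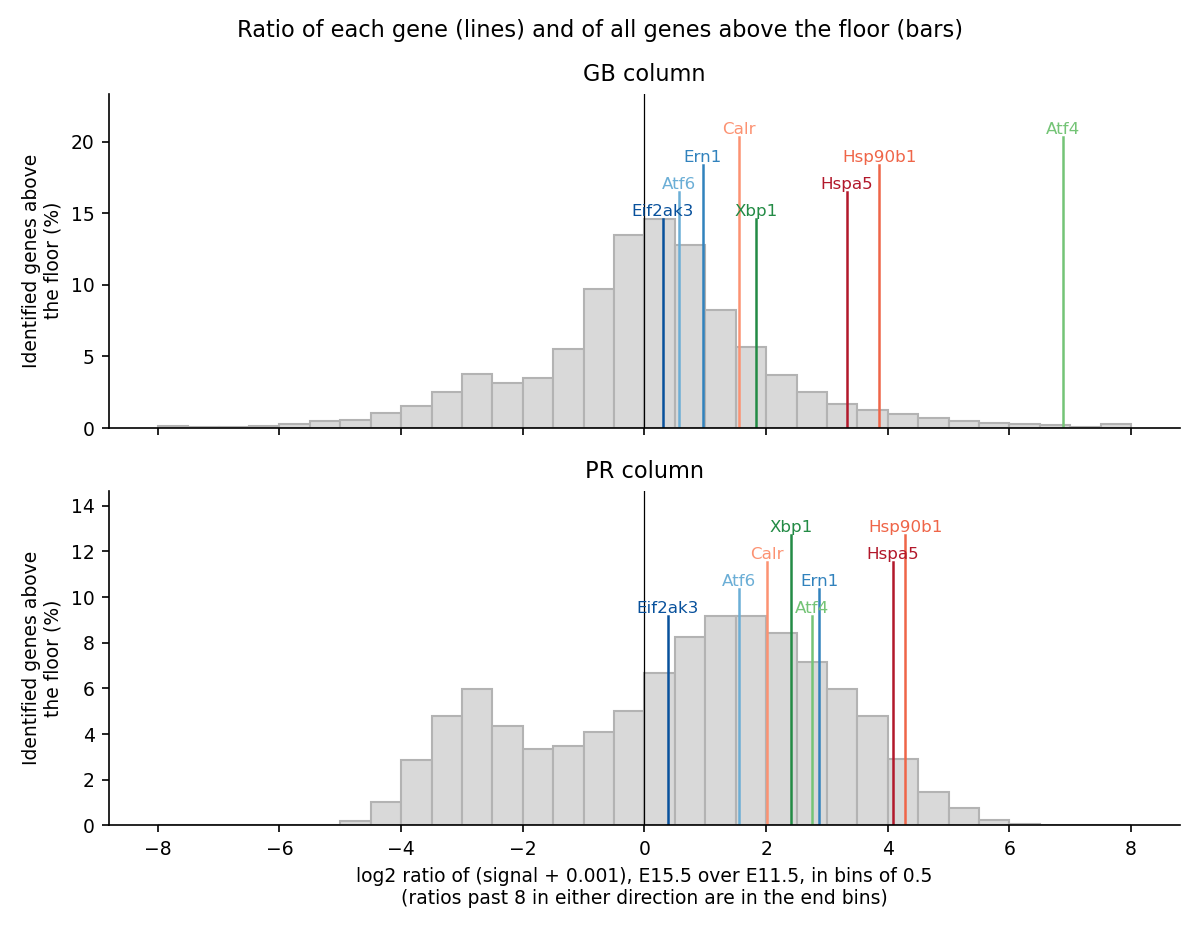
Log2 ratio of E15.5 over E11.5 for GB (top) and PR (bottom), with 0.001 added to each value; bars give the percentage of all identified genes above the floor per bin of 0.5 and coloured lines mark the 8 genes. All 8 lines lie above 0 in both panels, and in GB they begin at 0.30 (Eif2ak3); the place of Atf4, farthest right, rests on 2 steps at E11.5 and on the added 0.001.

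Gene length bears on these ratios, because GB of short genes varied more between libraries and was higher at E15.5 at the median. Among genes with recovered lengths of 4000 to 8000 positions the median log2 GB ratio of E15.5 over E11.5 was 0.64, with the 10th and 90th percentiles at -2.94 and 3.00. In the bin that starts at 64000 positions and holds Ern1 the same values were 0, -1.0 and 0.85. The 8 genes were therefore also ranked among genes between 0.5 and 2 times their own length. All 8 lay above the median of such genes, between percentiles 62.0 and 99.9. Among the chaperones, Hsp90b1 was at 99.6, Hspa5 at 90.5 and Calr at 67.9. The sensors, with the smaller ratios, were at 91.8 (Ern1), 84.3 (Atf6) and 62.0 (Eif2ak3). Xbp1 was at 74.1 and Atf4 at 99.9. A 2-fold higher GB was seen in 7.5% of the 2910 genes of like length to Ern1 and in 42.3% of the 3911 genes of like length to Calr.

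**Figure D4:**
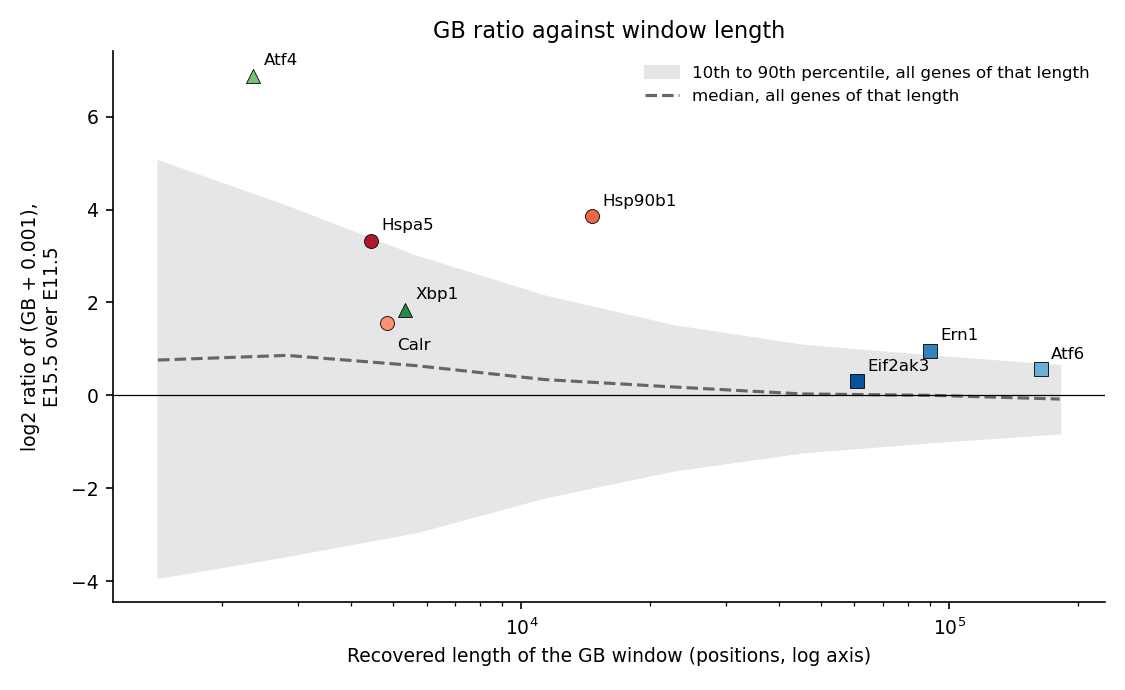
Log2 ratio of E15.5 over E11.5 in GB (with 0.001 added) against the recovered length of the GB window (positions, log axis); circles are chaperones, squares sensors, triangles downstream factors, the shaded band is the 10th to 90th percentile and the dashed line the median of all genes of that length. Hsp90b1, Atf4, Hspa5 and Ern1 lie at or above the upper edge of the band, Eif2ak3 close to the median.

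Dividing PR by GB of the same library cancels any scale factor. The median of this ratio over the 8 genes was 0.643 in E11.5 cells, 0.444 in E13.5 cells and 1.04 in E15.5 cells, beside 0.770, 0.740 and 1.08 over all genes with GB above 0. Eif2ak3 had a ratio above 1 at every stage, at 2.65, 1.24 and 2.75. Hspa5 stayed below 1, at 0.346, 0.692 and 0.719. The median of SE outside PR over the 8 genes was 0.00483, 0.00861 and 0.0150 in stage order, whereas over all genes it was 0.00356, 0.00357 and 0.00130. The single genes were split, since Calr, Eif2ak3, Ern1 and Atf6 were not highest at E15.5 in this part.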

How the data were processed

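H3K36me3 CUT&Tag signal was deposited as 1 file per stage, with 25493 rows and 3 signal columns (GB, PR and SE, named only so in the headers); 1175 rows (4.61%) without an identifier were left out. Per the submitters' processing notes the authors used Bowtie2 2.4.2 and mm10. Filters, scaling and gene models are not given in the sources used here. Multiplied by their window lengths, 6000 and 12000, the PR and SE values came out whole in units of a step of 0.162, 0.167 and 0.163 in stage order (within 0.05 steps). GB lengths were recovered for 20240 genes with signal in at least 2 libraries, as the shortest length whose sums have 2 decimals and are whole steps (within 0.08 steps plus 1e-05 of the sum).

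Percentiles count lower values among identified genes, with ties shared. Ratios are log2(later + 0.001) minus log2(earlier + 0.001). No test was run, since each stage has 1 library. All 8 genes are named. The gene list and tests were chosen with earlier results of these data known. Lists of other pathway genes and of cell type markers went unused, as no symbols were paired with identifiers, and protein sequences were not used. Scripts were checked on simulated data and ran in Python 3.11.15 with pandas 2.3.3, numpy 2.4.6 and numba 0.67.0.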

Additional observations from a re-analysis of the deposited data

How the results depend on the processing

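Of 537 recomputed values over 72 results, 379 stayed within the main value's range (1.5 times for counts and ratios, the 95% binomial interval for percentiles), 156 moved and 2, both at least 2-fold in the main values, reversed. Quantile normalization, which makes the libraries alike, turned the log2 ratio of Hspa5 for E15.5 against E13.5 to -0.11 in GB and -0.35 in PR. It also turned the PR ratio of Eif2ak3 for E15.5 against E11.5, which was short of 2-fold at 0.38, to -0.75. No paired analysis was possible because the 3 stages have no replicates, so nothing was tested. Depth per value is unknown, and low values of few steps limit the E11.5 and E13.5 levels of Hsp90b1, Atf4 and Xbp1, and GB of Calr (404 and 301 steps). For Atf6 at these stages they limit PR (50 and 12 steps) and SE (62 and 142), while its GB was 3654 and 3328 steps. The same limit holds for PR of Ern1 (64 steps) and Hspa5 (86 steps) at E11.5 and of Calr (90 steps) at E13.5. GB of Hspa5 at E11.5 was 184 steps. Beyond what a setting does by construction, causes were not tested. Dividing by the median GB of rows above 0 was added after seeing the data, and moved no count past 1.5 times.

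The median GB percentile at E11.5 (main 63.9) was 64.6 among all rows, 58.6 among rows above 0, 55.8 among genes of like length and 57.8 as a mean. At E13.5 (75.0) it was 70.7 above 0 and 73.0 as a mean, and at E15.5 (95.9) 94.8, 96.2 at like length and 87.8 as a mean. Leaving out 1 gene at a time gave 58.7 to 69.2, 69.4 to 80.7 and 94.9 to 96.8 in stage order. The PR percentile above 0 was 53.3, 41.0 and 90.5, and its mean 52.2 at E13.5 and 85.6 at E15.5.

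A pseudocount of 1 compresses all ratios and left 0 genes called in every comparison of GB and PR (SE ratios were not recomputed under other pseudocounts, floors or folds), with medians of 0.04 for GB at E15.5 against E13.5 and 0.04 against E11.5, and of 0.04 and 0.05 for PR. For E13.5 against E11.5, GB gave 1 higher at a floor 5 times higher, and 1 lower at 1.5-fold and 1 lower under quantile normalization. PR gave 1 higher with a pseudocount of 0.005, 1 with the raised floor and 1 at 4-fold, and 0 lower with the raised floor and 1 lower at 4-fold. At E15.5 against E13.5, 4-fold left 2 genes higher in GB and 5 in PR, the raised floor 5 in PR and quantile normalization 5 in PR. Against E11.5, GB kept 3 higher at 4-fold and 3 under quantile normalization. Quantile normalization gave GB medians of 0.90 (E15.5 against E13.5) and 0.85 (against E11.5), and PR medians of 1.62 and 1.5. The PR median became 3.08 with a pseudocount of 0.0001 and 1.74 with 0.005 for E15.5 against E13.5, and 1.96 with 0.005 against E11.5. Leaving out 1 gene at a time put the PR median for E13.5 against E11.5 (-0.29) between -0.81 and 0.23, so its sign rests on single genes. Scaling moved the median log2 ratio of all genes by -0.22 to 0.23 for GB and by -1.12 to 0.22 for PR. Under quantile normalization the genes highest at E15.5 were 7 of 8 in GB, 6 in PR and 6 in SE, and under both divisions by a median GB 8 of 8 in each column.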

Other observations

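The genes closest to Atf4 in GB over the 3 stages, of 6189 genes at or above the floor in every library, were ENSMUSG00000011658 and ENSMUSG00000049382, with a mean absolute log2 difference of 0.88 and 0.89. Their GB was 0.00584, 0.0171 and 0.134, and 0.00543, 0.0156 and 0.135, in stage order. Atf4 itself was below the floor at E11.5, so the likeness rests on E13.5 and E15.5.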
